A study of Mus musculus with 12 samples.

Results

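Collagen genes were taken as every gene on the array whose symbol reads Col, a number, the letter a and a number. The rule found 41 genes, out of 19057 gene symbols with a probe on the platform, and these 41 genes had 91 probes. Each gene was read from its probe with the highest mean signal, so that 27 genes with several probes entered once. The hearts came from untreated mice of the strain labelled C57BL6/129Sv, which differed in genotype at Trex1 and at STING. Trex1 encodes a nuclease that degrades cytosolic DNA, and STING is the adaptor through which cytosolic DNA induces interferon. The 6 groups, each of 2 Illumina arrays of total heart RNA, were Trex1 KO with STING -/-, Trex1 WT with STING -/-, Trex1 KO with STING +/-, Trex1 WT with STING +/-, Trex1 KO with STING +/+ and Trex1 WT with STING +/+. The labels write these Trex1 states as Trex-/- and Trex+/+. The labels give neither the ages of the mice nor how the alleles were made, and nothing in them says whether 2 arrays of a group came from separate mice, so the p-values measure the spread between these arrays.

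Collagens are triple-helical proteins of the extracellular matrix. Types I, III, V and XI assemble into fibrils that bear tension between cardiomyocytes, and fibroblasts make most of the fibrillar collagen of the heart. Type IV forms the sheet-like network of basement membranes around vessels and muscle cells, type VIII a network found in vessel walls and remodelling tissue, and type VI beaded filaments close to cell surfaces. Types XV and XVIII carry heparan or chondroitin sulfate chains at basement membranes, and type XVI belongs to the collagens that attach to fibrils or other matrix assemblies.

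A gene was called detected on an array when its detection p was under 0.05. On that measure 31 of the 41 collagen genes were detected on at least 1 array and 14 on all 12 arrays. The 14 were the fibril-forming chains Col1a1, Col1a2, Col3a1, Col5a1 and Col11a2, the basement membrane chains Col4a1, Col4a2 and Col4a5, the network chain Col8a1, the multiplexins Col15a1 and Col18a1, the beaded filament chains Col6a1 and Col6a2, and Col16a1. Another 13 genes were detected on 2 to 11 arrays. The remaining 14 genes were not tested, since 4 of them were detected on 1 array (Col2a1, Col9a2, Col25a1 and Col28a1) and 10 on none (Col6a4, Col6a5, Col6a6, Col7a1, Col9a3, Col10a1, Col13a1, Col19a1, Col24a1 and Col26a1). Single arrays detected 17 to 25 of the 41 genes, and the fewest were on replicate 1 of Trex1 WT, STING +/-.

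Promoter windows are shown for the network chain Col8a1 and the fibril-forming chain Col3a1, whose signals differed between Trex1 KO groups, and for Col4a1 and Col4a2, which are transcribed from a shared promoter region. Each window runs from 250 bases before to 50 bases after the gene's start in RefSeq annotation of GRCm38.p6, 5′ to 3′ on the gene's own strand. Capitals mark the TATA box TATAAA, the CCAAT box CCAAT and the GC box GGGCGG on either strand. Col8a1 lies at chr16:57754688-57754987 on the minus strand, Col3a1 at chr1:45311288-45311587 on the plus strand, Col4a1 at chr8:11312777-11313076 on the minus strand and Col4a2 at chr8:11312555-11312854 on the plus strand.
Col8a1: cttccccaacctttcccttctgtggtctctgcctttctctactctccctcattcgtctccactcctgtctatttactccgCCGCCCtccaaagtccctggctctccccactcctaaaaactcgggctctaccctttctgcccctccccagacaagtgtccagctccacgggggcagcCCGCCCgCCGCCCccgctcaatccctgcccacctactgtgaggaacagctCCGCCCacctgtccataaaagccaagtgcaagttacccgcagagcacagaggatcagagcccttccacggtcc
Col3a1: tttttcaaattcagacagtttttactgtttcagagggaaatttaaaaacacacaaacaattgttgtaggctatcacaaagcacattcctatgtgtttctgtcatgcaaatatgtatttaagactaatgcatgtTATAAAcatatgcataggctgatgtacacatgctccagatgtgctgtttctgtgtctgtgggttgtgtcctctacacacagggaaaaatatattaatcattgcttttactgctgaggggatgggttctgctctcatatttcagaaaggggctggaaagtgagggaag
Col4a1: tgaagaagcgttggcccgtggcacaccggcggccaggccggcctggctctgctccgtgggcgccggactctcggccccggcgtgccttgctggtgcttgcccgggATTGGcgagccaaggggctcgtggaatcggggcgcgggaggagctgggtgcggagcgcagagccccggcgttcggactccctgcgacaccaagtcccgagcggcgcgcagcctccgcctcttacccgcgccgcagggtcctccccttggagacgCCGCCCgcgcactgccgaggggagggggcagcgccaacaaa
Col4a2: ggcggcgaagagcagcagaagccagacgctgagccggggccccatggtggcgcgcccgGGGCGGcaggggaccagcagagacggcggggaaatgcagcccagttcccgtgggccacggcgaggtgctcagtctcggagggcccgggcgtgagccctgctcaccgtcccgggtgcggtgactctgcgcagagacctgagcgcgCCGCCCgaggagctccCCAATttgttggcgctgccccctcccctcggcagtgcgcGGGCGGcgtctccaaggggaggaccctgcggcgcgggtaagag
The Col8a1 window holds 4 GC boxes and no TATAAA, and the Col3a1 window 1 TATAAA, 117 bases before the start, and no GC box. The windows of Col4a1 and Col4a2 share 78 bases, and their starts lie 21 bases apart on opposite strands. Windows were found for 33 of the 41 genes. Over 36 windows of these genes, GGGCGG occurred in 63.9%, beside 35.7% of the 32851 windows of all genes in the table. The other motifs searched on both strands were TATAAA, in 13.9% beside 13.6%, CCAAT, in 36.1% beside 37.4%, the AP-1 motif TGANTCA, in 2.78% beside 7.81%, the STAT motif TTCNNNGAA, in 5.56% beside 8.30%, and the core of the interferon-stimulated response element, in 0 of 36 beside 3.44%. The STAT motif and that element can overlap within a window. These matches describe letters in a window, and no binding was measured.

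All 7 measured cardiomyocyte markers were detected on each of the 12 arrays, and Tnnt2, also on that list, was not measured. Of the Trex1 probes, ILMN_3131766 read 5.60 and 6.76 (log2) in Trex1 KO, STING +/+ and 5.38 to 5.68 in the other Trex1 KO arrays, against 6.53 to 7.34 in Trex1 WT arrays, so replicate 2 of Trex1 KO, STING +/+ lay in the WT range; whether this probe lies in the deleted segment is not given. The description labels give another STING genotype than the titles for 7 of the 12 samples, and the titles were used. The STING transcript Sting1 read 7.03 and 6.94 in Trex1 KO, STING +/+ and 4.67 to 5.75 on all other arrays. Signal for Hnrnpa2b1, an RNA-binding protein gene, was 10.9 to 11.6 except in Trex1 KO, STING +/+ (5.91, replicate 2) and Trex1 WT, STING +/- (8.47, replicate 1). Xist was high (8.93 to 9.97) on replicate 2 of Trex1 KO, STING +/+, replicate 1 of Trex1 WT, STING -/- and both Trex1 WT, STING +/+ arrays, and 4.34 to 4.86 on the others. The atrial light chain gene Myl7 had a log2 signal of 15.10 for Trex1 KO, STING -/- (replicate 2), 14.24 and 14.94 for Trex1 WT, STING -/- and 9.86 for Trex1 KO, STING +/- (replicate 2), with at most 5.25 elsewhere.

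Over the 14 genes detected everywhere, replicate 1 of Trex1 KO, STING +/+ and of Trex1 KO, STING +/- had the highest averages. Replicate 2 of each lay far lower, below the higher of the Trex1 WT, STING +/+ arrays. Averaged over the 14 genes as deviations from each gene's mean over the 12 arrays (log2), the values were -0.40 and -0.16 in Trex1 KO, STING -/-, -0.17 and -0.04 in Trex1 WT, STING -/-, 0.56 and 0.01 in Trex1 KO, STING +/-, -0.71 and -0.25 in Trex1 WT, STING +/-, 0.74 and 0.16 in Trex1 KO, STING +/+, and 0.18 and 0.08 in Trex1 WT, STING +/+. Replicate 1 of Trex1 KO, STING +/+ was the highest array for 7 of the 14 genes and replicate 1 of Trex1 KO, STING +/- for 5, while replicate 1 of Trex1 WT, STING +/- was the lowest for 9. The same averages over all features detected on 12 arrays stayed between -0.06 and 0.05. The first 2 of these arrays also had the highest shares of probes detected, 44.7% and 44.6%, and the last the lowest, 38.3%; the part of these shares in the collagen values was not tested.

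**Figure D1:**
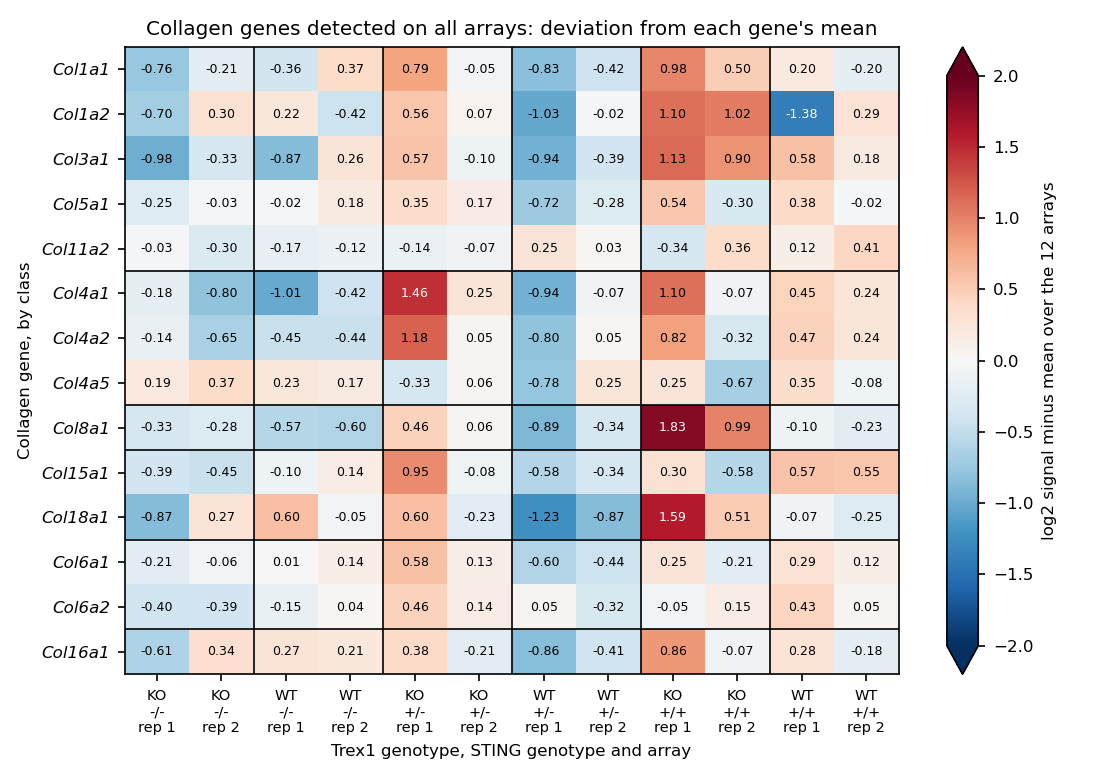
Normalized log2 signal of the 14 collagen genes detected on all arrays, as the deviation from each gene's mean over 12 arrays, with genes in rows by class and arrays in columns by genotype. Replicate 1 of Trex1 KO, STING +/+ and of Trex1 KO, STING +/- hold the highest values for 12 of the 14 genes, and replicate 1 of Trex1 WT, STING +/- the lowest for 9.

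The effect of Trex1 loss on an intact STING background was read from Trex1 KO against Trex1 WT hearts, both STING +/+. Of the collagen genes 1 rose, Col8a1, which encodes a short-chain network collagen of vessel walls and injured tissue. Its raw signal was 1773.3 and 799.2 in Trex1 KO, STING +/+ hearts, against 398.7 and 347.4 in Trex1 WT, STING +/+ hearts. Both KO arrays lay above both WT arrays and above every other array of the series, although they differed more from each other than any other pair. On the normalized log2 scale the values were 10.36 and 9.51 in KO and 8.42 and 8.30 in WT, a difference of 1.58 ± 0.29 (SE, 95% interval 0.92 to 2.23) or 2.99-fold (limma, adjusted p = 0.00418). The call was made for 1 of 27 collagen genes tested, which is 3.70%, beside 21.7% of all 15560 features called in either direction and 11.8% called higher. It was past the threshold without each array in turn, with differences of 1.16 to 2.00, and was lost when only these 2 groups entered the fit (adjusted p = 0.0527). With the log2 Xist signal as a covariate, Col8a1 differed by 1.37 ± 0.32 (limma adjusted p = 0.0184). A dimmer Col8a1 probe, detected on all 12 arrays, gave 1.00 ± 0.44 and did not pass (adjusted p = 0.136).

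Fibril-forming chains did not pass in this comparison. Col1a2, a chain of type I collagen, read 7.74 and 7.66 (log2) in Trex1 KO, STING +/+ hearts, against 5.26 and 6.93 in Trex1 WT, STING +/+ hearts. The KO arrays lay close together above the WT arrays, which were far apart, and the difference of 1.60 ± 0.55 had an adjusted p of 0.0626. On leaving out 1 array in turn, the Col1a2 difference ranged from 0.77 to 2.44. The largest came without replicate 2 of Trex1 WT, STING +/+. That fit left replicate 1 as the only WT array, with a raw signal of 105.2 and a detection p of 0.0224. Col1a1, the other type I chain, had raw signals of 621.8 and 343.0 in KO against 297.4 and 225.6 in WT (0.74 ± 0.36, adjusted p = 0.176). Col3a1, the fibril-forming chain of distensible tissue, had 792.6 and 510.8 in KO against 422.6 and 314.1 in WT (0.64 ± 0.40, adjusted p = 0.288). For both genes the KO arrays lay above the WT arrays on these probes. A dimmer Col3a1 probe, detected on 9 arrays, differed the other way, by -0.56 ± 0.48 (limma adjusted p = 0.440). Col5a1, which nucleates fibrils, differed by -0.06 ± 0.29, and Col11a2 by -0.25 ± 0.25 with raw signals of only 104.6 to 127.2 over the series.

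The basement membrane chains Col4a1, Col4a2 and Col4a5 differed by 0.17 ± 0.50, -0.10 ± 0.45 and -0.34 ± 0.37. Col4a1 read 12.74 and 11.57 in Trex1 KO, STING +/+ against 12.09 and 11.88 in Trex1 WT, STING +/+, so the WT arrays fell between the KO arrays. The multiplexins had differences of opposite sign. Col18a1, whose C-terminal fragment is endostatin, read 9.87 and 8.80 in KO against 8.22 and 8.04 in WT (1.21 ± 0.46, adjusted p = 0.0905), and Col15a1 read 8.35 and 7.47 in KO against 8.61 and 8.60 in WT (-0.70 ± 0.35, adjusted p = 0.188). On leaving out 1 array in turn, Col18a1 ranged from 0.67 to 1.75 and Col15a1 from -1.14 to -0.26. A second Col18a1 probe, detected on 5 arrays, gave 0.57 ± 0.28 and did not pass (limma adjusted p = 0.171). Col6a1, Col6a2 and Col16a1 differed by -0.18 ± 0.23, -0.19 ± 0.22 and 0.34 ± 0.39. Over the 14 genes, 7 differences were positive and 7 negative, with a median of 0.05, beside -0.11 over the 10106 features detected on all arrays. That median was 0.61 without replicate 2 of Trex1 KO, STING +/+ and -0.11 without replicate 1.

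**Figure D2:**
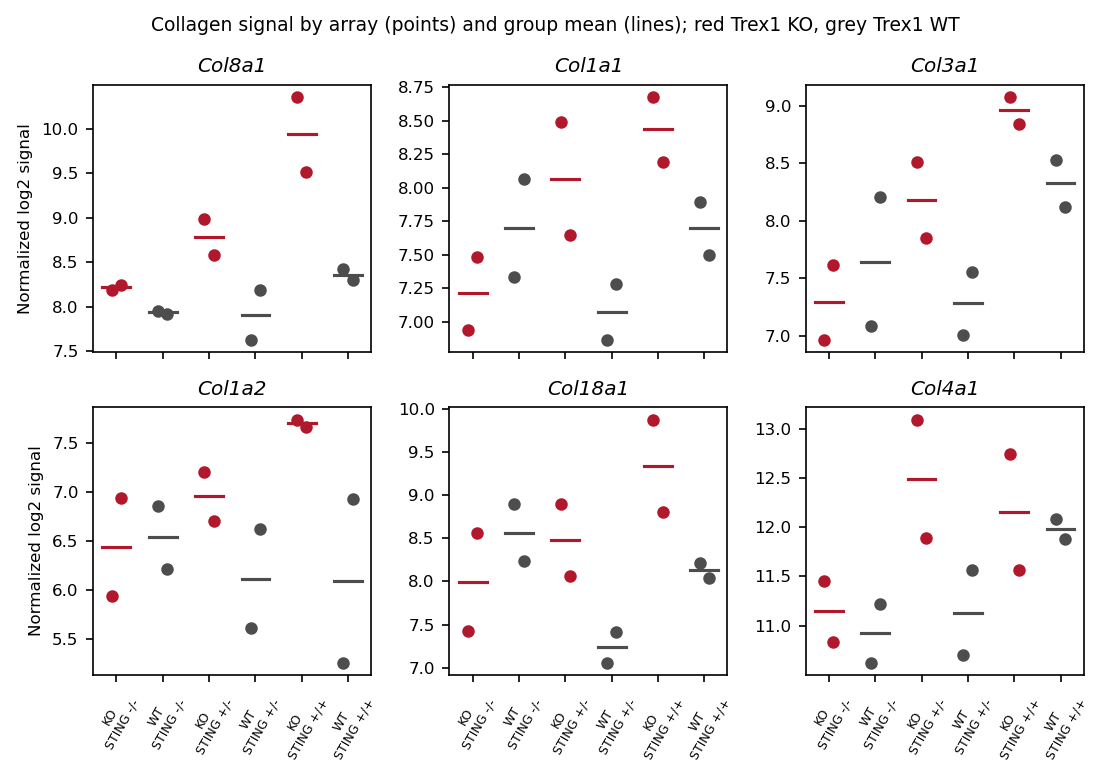
Normalized log2 signal of 6 collagen genes on each array (points, red for Trex1 KO and grey for Trex1 WT) with group means as lines. Both Trex1 KO, STING +/+ arrays of Col8a1, at 10.36 and 9.51, lie above the other 10 arrays, while for Col4a1 the KO points at 12.74 and 11.57 lie on either side of the WT points at 12.09 and 11.88.

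On the heterozygous background, Trex1 KO, STING +/- against Trex1 WT, STING +/-, no collagen gene passed the limma threshold, beside 1.28% of all features called; 10 of the 27 had an unadjusted p under 0.05, beside 11.7% of all features. For 12 of the 14 genes detected everywhere, both KO arrays lay above both WT arrays, beside 18.9% of all 15560 features. That share takes in features near background, unlike the 14 genes. For Col4a2 the lower KO array and the higher WT array were almost level (10.74 and 10.73, log2). Col4a1 had raw signals of 9300.1 and 3904.3 in Trex1 KO, STING +/- hearts, against 1470.0 and 2816.0 in Trex1 WT, STING +/- hearts (1.36 ± 0.50, 95% interval 0.26 to 2.46, adjusted p = 0.311). Its partner chain Col4a2 had 4115.2 and 1789.4 in KO against 851.0 and 1593.8 in WT (0.99 ± 0.45). Col6a1, a chain of the beaded filaments, had 1849.5 and 1192.2 in KO against 617.3 and 750.8 in WT, and its 0.87 ± 0.23 carried the smallest adjusted p of the collagen genes, 0.132. Col8a1 had 661.0 and 429.4 in KO against 211.6 and 316.4 in WT (0.87 ± 0.29, adjusted p = 0.269). The groups did not overlap for any of these 4 genes, yet the replicates were far apart in KO for Col4a1 and Col4a2.

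The other genes of the 14 on this background differed by 1.24 ± 0.46 for Col18a1, 0.99 ± 0.36 for Col1a1, 0.90 ± 0.40 for Col3a1, 0.89 ± 0.35 for Col15a1, 0.84 ± 0.55 for Col1a2, 0.76 ± 0.29 for Col5a1, 0.71 ± 0.39 for Col16a1 and 0.44 ± 0.22 for Col6a2. For Col4a5 the groups overlapped (0.13), and for Col11a2 the KO arrays lay below the WT arrays (-0.25). The median over the 14 was 0.87, beside -0.08 over the features detected on all arrays. It was 0.61 without replicate 1 of Trex1 WT, STING +/- (low in Hnrnpa2b1), 1.08 without its other replicate and 0.57 without replicate 1 of Trex1 KO, STING +/-.

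On the STING -/- background, Trex1 KO against Trex1 WT hearts, no collagen gene passed the limma threshold, beside 0.0129% of all features. Col8a1 had raw signals of 325.9 and 401.0 in Trex1 KO, STING -/- hearts, against 305.9 and 300.0 in Trex1 WT, STING -/- hearts, and differed by 0.28 ± 0.29 (95% interval -0.37 to 0.94). Of the 14 genes, 4 differences were positive and 10 negative, with a median of -0.21, beside 0.01 over the features detected on all arrays. This median was -0.10 without replicate 1 and -0.34 without replicate 2 of Trex1 KO, STING -/-, and -0.12 without replicate 2 of Trex1 WT, STING -/-. Whether the Trex1 difference itself varied with STING was tested as an interaction. The Col8a1 difference on STING +/+ exceeded that on STING -/- by 1.30 ± 0.42 (95% interval 0.37 to 2.22), which did not pass (adjusted p = 0.0835), nor did any other collagen gene, beside 9.88% of all features. On leaving out 1 array in turn, this Col8a1 value ranged from 0.87 to 1.72. The highest came without replicate 2 of Trex1 KO, STING +/+, which is 1 of the 2 arrays of low Hnrnpa2b1 signal. Leaving out both of those arrays also gave 1.72. For STING +/+ minus STING +/-, no collagen gene passed, beside 1.95% of all features, with Col6a1 at -1.05 ± 0.32 (adjusted p = 0.120) and Col15a1 at -1.59 ± 0.50 (adjusted p = 0.125).

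Within Trex1 KO hearts, 3 collagen genes fell in STING -/- relative to STING +/+, and for each of them both STING -/- arrays lay below both STING +/+ arrays. Col8a1 had raw signals of 325.9 and 401.0 in Trex1 KO, STING -/- hearts, against 1773.3 and 799.2 in Trex1 KO, STING +/+ hearts. Its log2 difference was -1.72 ± 0.29, or 3.28-fold (95% interval -2.37 to -1.06, limma adjusted p = 0.00250), and it passed without each array in turn and under all 11 other settings. The second Col8a1 probe differed by -1.49 ± 0.44 (limma adjusted p = 0.0346). Trex1 KO, STING +/+ hearts enter this comparison and the one with Trex1 WT, so the results share those 2 arrays.

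Col3a1 had raw signals of 173.3 and 282.9 in Trex1 KO, STING -/- hearts, against 792.6 and 510.8 in Trex1 KO, STING +/+ hearts. The log2 difference was -1.67 ± 0.40 (95% interval -2.56 to -0.78, limma adjusted p = 0.0138), lost without replicate 1 of Trex1 KO, STING -/- (-1.35, adjusted p = 0.103) and with array weights (adjusted p = 0.0998). The dimmer Col3a1 probe, detected on 9 arrays, differed by 0.22 ± 0.48, so the probes of this gene disagreed. Col1a1 had 171.5 and 263.9 in STING -/-, against 621.8 and 343.0 in STING +/+ (-1.22 ± 0.36, 95% interval -2.03 to -0.42, limma adjusted p = 0.0350). Its call was lost without replicate 1 of Trex1 KO, STING +/+ (-0.98, adjusted p = 0.113), without replicate 1 of Trex1 KO, STING -/- (-0.95, adjusted p = 0.201) and without its replicate 2 (-1.50, adjusted p = 0.0522). It was also lost under 4 of the 11 other settings, where the adjusted p of Col1a1 was 0.0565 to 0.158. The 3 calls among 27 genes, 11.1%, stand beside 23.9% of all features, and beside 12.7% called lower and 11.2% called higher.

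Chains that did not pass in this comparison included Col18a1 (-1.35 ± 0.46, adjusted p = 0.0599), Col1a2 (-1.26 ± 0.55, adjusted p = 0.125) and Col4a1 (-1.01 ± 0.50, adjusted p = 0.170). On leaving out 1 array in turn, the Col18a1 difference ranged from -1.92 to -0.78. It was -1.88 without the 2 arrays of low Hnrnpa2b1 signal and -1.92 without the 2 Trex1 KO arrays of raised atrial signal. Both of these fits left 1 array in a compared group. The second Col18a1 probe, detected on 5 arrays, differed by -0.86 ± 0.28 (limma adjusted p = 0.0496). Of the 14 genes, 13 differences were negative, with a median of -0.59, beside 0.07 over the features detected on all arrays. The median was -1.11 without replicate 2 of Trex1 KO, STING +/+, and -0.47 with 10 negative differences without its replicate 1.

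In Trex1 KO hearts with 1 STING allele, Col8a1 alone fell relative to STING +/+. It had 661.0 and 429.4 in Trex1 KO, STING +/- against 1773.3 and 799.2 in Trex1 KO, STING +/+, and every STING +/- array lay below every STING +/+ array (-1.15 ± 0.29, limma adjusted p = 0.0335, beside 11.1% of all features called and 6.8% called lower). The second Col8a1 probe differed by -0.67 ± 0.44 and did not pass (adjusted p = 0.372). The call of the first probe held in 5 of the 12 fits that left out 1 array and under 7 of the 11 other settings. It was lost without replicate 1 of Trex1 KO, STING +/+ (-0.73, adjusted p = 0.0777) and without replicate 1 (-1.35, adjusted p = 0.0624) or 2 (-0.95, adjusted p = 0.220) of Trex1 KO, STING +/-. It was also lost without either array of Trex1 WT, STING +/+ or Trex1 WT, STING -/- (adjusted p of Col8a1 0.0553 or 0.0555), and without the 2 Trex1 KO arrays of raised atrial signal (-0.95, adjusted p = 0.279). Trex1 KO, STING -/- against STING +/- gave no collagen call with limma, beside 1.36% of all features; the differences were -1.35 ± 0.50 for Col4a1 (adjusted p = 0.342) and -1.01 ± 0.45 for Col4a2. STING loss in Trex1 WT hearts gave none either, beside 0.0578% of all features, and Col4a1 differed by -1.06 ± 0.50 (adjusted p = 0.550).

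**Figure D3:**
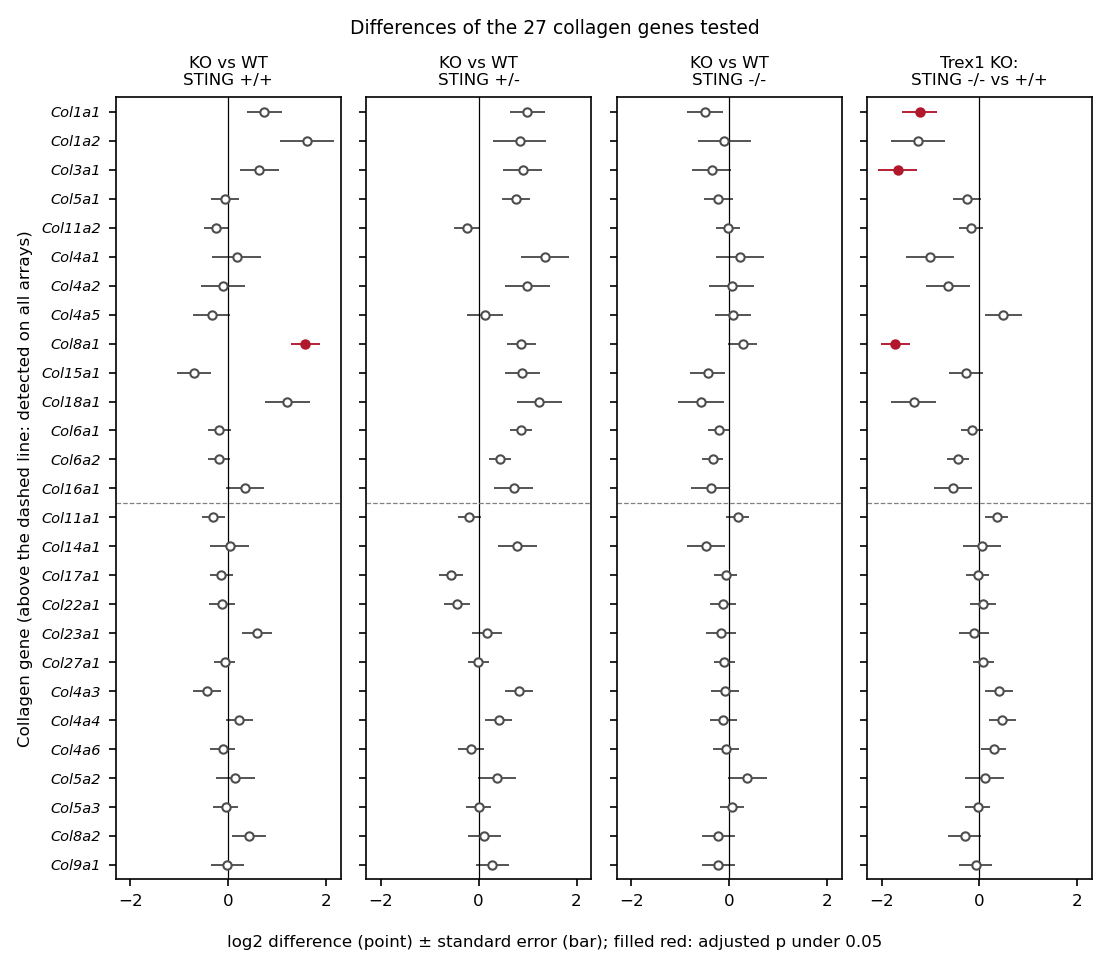
Log2 differences of the 27 tested collagen genes with their standard errors in 4 comparisons, the first 3 of Trex1 KO against Trex1 WT by STING genotype and the last within Trex1 KO hearts. Filled red points mark the calls, Col8a1 at 1.58 in the STING +/+ panel and Col8a1, Col3a1 and Col1a1 at -1.72, -1.67 and -1.22 in the last.

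The 13 genes detected on 2 to 11 arrays gave no call in any of the 9 contrasts with all arrays. On STING +/+ the least adjusted p among them was that of Col23a1, a transmembrane collagen, at 0.206. It was detected on 1 of 2 Trex1 KO arrays and 0 of 2 Trex1 WT arrays. Its log2 signals were 4.62 and 5.58 in KO, the second one detected, and 4.52 on both WT arrays. Without replicate 1 of Trex1 KO, STING +/+, that group held only replicate 2, an array of low Hnrnpa2b1 signal. Col23a1 then differed by 1.06 on STING +/+ and by -0.83 in Trex1 KO, STING +/- against STING +/+. Its interaction of STING +/+ minus STING -/- was then 1.23. A second Col23a1 probe, detected on 3 arrays, was read with all arrays. It differed by -0.05 ± 0.24 on STING +/+ and -0.01 ± 0.24 in Trex1 KO, STING +/- against STING +/+. For Col4a3, a chain of specialised basement membranes, leaving out replicate 1 of Trex1 KO, STING +/+ also left only replicate 2. Col4a3 then differed by 0.89 in Trex1 KO, STING +/- against STING +/+, and its interaction of STING +/+ minus STING +/- was -1.63. On STING +/- with all arrays, Col4a3 was detected on 2 of 2 Trex1 KO arrays and 0 of 2 Trex1 WT arrays, at least 1.19-fold higher in KO (adjusted p = 0.284). There Col17a1, a hemidesmosomal collagen, was detected on 0 of 2 KO arrays and 1 of 2 WT arrays (limma adjusted p = 0.383). Its log2 signals were 4.58 and 4.65 in KO and 4.95 and 5.42 in WT, the last one detected. Col14a1, which decorates fibrils, was detected on 11 arrays with raw signals of 86.8 to 241.5. Col4a4 and Col5a2 were also detected on 11 arrays, Col4a3 on 9, Col9a1 on 8, Col5a3 and Col8a2 on 7, Col17a1 and Col23a1 on 4, Col11a1 on 3, and Col22a1, Col27a1 and Col4a6 on 2. Both Col27a1 and Col4a6 were detected on replicate 2 of Trex1 KO, STING -/- and replicate 1 of Trex1 WT, STING -/-, 2 of the arrays with high Myl7; the part of atrial tissue in these detections was not tested.

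Chains that are built into common fibres or trimers were compared across the 12 arrays in 4 pairs, with 100000 permutations and p-values adjusted over the 4. Col4a1 and Col4a2, whose products form the common type IV trimer, had Pearson's r of 0.967 (permutation p = 4e-05, adjusted p = 8e-05) and Spearman's rho of 0.951. Within groups, after subtracting group means, r was 0.958, and without the 2 arrays farthest from the median of Col4a1 it was 0.914. Col1a1 and Col3a1, which share fibrils, had an r of 0.930 (permutation p = 2e-05, adjusted p = 8e-05) and a rho of 0.944, with 0.948 within groups and 0.923 without the 2 farthest arrays. This holds for the brighter Col3a1 probe, with which the dimmer probe had an r of only 0.353. The type I partners Col1a1 and Col1a2 had an r of 0.575 (permutation p = 0.05016, adjusted p = 0.05016) and a rho of 0.608, and r was 0.0849 within groups and 0.341 without the 2 farthest arrays, so that relation rested on the groups and on those arrays. Col6a1 and Col6a2 had an r of 0.579 (permutation p = 0.04654, adjusted p = 0.05016), a rho of 0.455, 0.170 within groups and 0.640 without the 2 farthest arrays. As a description, the 91 pairs among the 14 genes had a median r of 0.532, with 75 above 0, and arrays share their depth and quality.

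**Figure D4:**
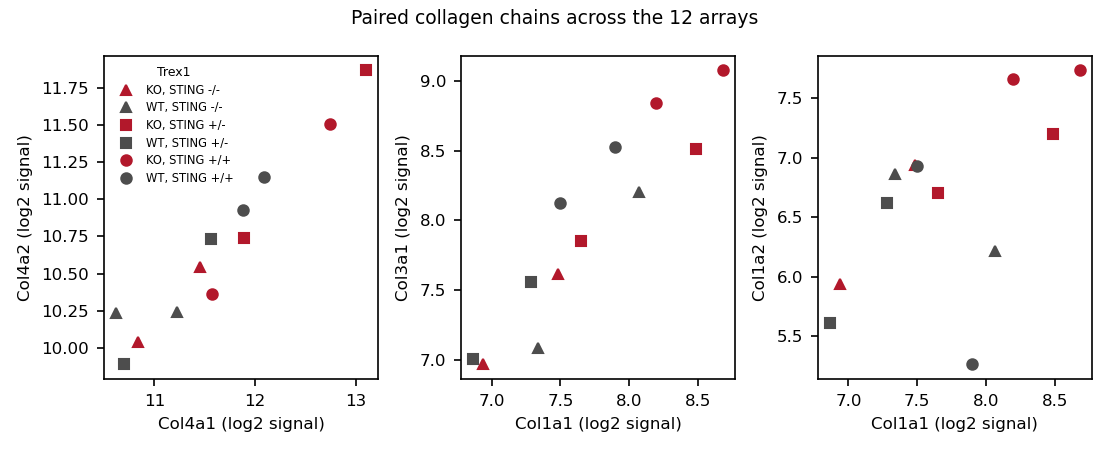
Normalized log2 signal of paired collagen chains on the 12 arrays, with red for Trex1 KO, grey for Trex1 WT and symbols for the STING genotype. Col4a1 and Col4a2 (r = 0.967) and Col1a1 and Col3a1 (r = 0.930) lie close to a line, Col1a1 and Col1a2 (r = 0.575) scatter.

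Genes that modify, fold, process and crosslink collagen moved in both directions; rose and fell mean a limma adjusted p under 0.05, which 11.8% of all features passed upward and 9.9% downward on STING +/+. In Trex1 KO against Trex1 WT hearts on STING +/+, 2 of 14 measured modification genes rose, the prolyl 3-hydroxylase gene P3h2 (1.07 ± 0.23) and the lysyl hydroxylase gene Plod3 (0.96 ± 0.21), and 1 fell, the galactosyltransferase gene Colgalt2 (-1.22 ± 0.21). Of 9 folding and secretion genes 2 rose, the transcription factor gene Creb3l1 (at least 1.27-fold higher, undetected in WT) and the ion channel gene Tmem38b (0.68 ± 0.22). Of 4 crosslinking genes 1 rose: Lox, the lysyl oxidase that initiates collagen crosslinks, averaged 8.49 in KO and 5.94 in WT, 5.86-fold (2.55 ± 0.40, limma adjusted p = 0.00161). Of 3 procollagen processing genes 1 fell, Pcolce2, an enhancer of C-propeptide removal. The at-least folds set the mean of the group detected on 1 or 2 arrays against a floor for the undetected group. That floor was the lowest signal detected on the arrays of the undetected group, or the probe's own value where higher.

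Among 10 measured genes of collagen degradation and its inhibition, 2 rose and 2 fell on STING +/+. Timp1, an inhibitor of matrix metalloproteinases, averaged 11.71 in Trex1 KO and 6.76 in Trex1 WT (4.96 ± 0.50, limma adjusted p = 0.000138), and Mmp14, a membrane-bound collagenase, rose by 1.59 ± 0.41. Timp4, the inhibitor enriched in heart, averaged 5.93 in KO and 9.38 in WT (-3.45 ± 0.52). Of 12 proteoglycan and matricellular genes 0 rose and 2 fell, Lum (-1.56 ± 0.44) and Ogn; of 7 collagen receptor genes 1 rose, Lair1 of leukocytes (2.91 ± 0.39), and 1 fell, the integrin gene Itga11 (-0.89 ± 0.21). Of 12 basement membrane partners 1 fell, the laminin gene Lama2 (-1.10 ± 0.34). Of 12 TGF-beta genes 3 rose, among them Ccn2 (2.07 ± 0.58) and the ligand gene Tgfb2 (1.60 ± 0.32), and 2 fell, among them the coreceptor gene Tgfbr3 (-1.77 ± 0.30). On STING +/- the degradation list had 1 call, the gelatinase gene Mmp2 (1.45 ± 0.29, limma adjusted p = 0.0417), and the other 8 of these 9 lists had none, beside 1.28% of all features called there.

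Several of these genes differed the other way in Trex1 KO, STING -/- against Trex1 KO, STING +/+ hearts, a comparison that shares the Trex1 KO, STING +/+ arrays. Lox averaged 6.75 in STING -/- and 8.49 in STING +/+ (-1.74 ± 0.40, limma adjusted p = 0.0113), Timp1 averaged 6.85 in STING -/- and 11.71 in STING +/+ (-4.86 ± 0.50), and Timp4 averaged 10.42 in STING -/- and 5.93 in STING +/+ (4.49 ± 0.52). In this comparison 11.2% of all features were called higher and 12.7% lower. Of the 12 proteoglycan and matricellular genes 7 rose and 0 fell, with Tnxb at 1.78 ± 0.33, Lum at 1.43 ± 0.44 and Dpt, dermatopontin, at 1.41 ± 0.42. Of the modification genes 2 rose and 3 fell, with Ppib, a prolyl isomerase of the endoplasmic reticulum, at -1.52 ± 0.28 and Plod3 at -1.23 ± 0.21.

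Markers of the cells that make or surround collagen differed beside the collagen genes. In bulk tissue, fewer cells of a type and less RNA per cell cannot be told apart. All 11 fibroblast markers were measured, with 10 or 11 detected per array, and their summed raw signal was 27832 and 45038 in Trex1 KO, STING -/-, 33037 and 37201 in Trex1 WT, STING -/-, 25405 and 15754 in Trex1 KO, STING +/+ and 28434 and 21649 in Trex1 WT, STING +/+. On STING +/+, 2 of them rose and 5 fell in Trex1 KO, beside 11.8% and 9.9% of all features. Scara5, at -3.56 ± 0.25, was among the 5 that fell. In Trex1 KO, STING -/- against STING +/+, 6 rose and 2 fell, beside 11.2% and 12.7% of all features. Thy1, a surface glycoprotein of fibroblasts, was among the 2 that fell (-1.65 ± 0.31), against the direction of most calls in the list. The 6 measured myofibroblast markers summed to 9976 and 13092 in Trex1 KO, STING -/-, 13861 and 17646 in Trex1 KO, STING +/+ and 8208 and 8009 in Trex1 WT, STING +/+. Among them Meox1, a transcription factor gene of activated fibroblasts, rose by 2.41 ± 0.41 in Trex1 KO on STING +/+, and Cthrc1 was at least 1.20-fold higher, being undetected in WT. These 2 genes were named by the size of their difference and do not describe the list. Of all features 11.8% were called higher there. Postn and Cilp, also myofibroblast markers, were not measured.

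The 9 measured macrophage markers, 8 or 9 detected per array, summed to 5065 and 9377 in Trex1 KO, STING -/-, 16577 and 11992 in Trex1 KO, STING +/-, 33648 and 30274 in Trex1 KO, STING +/+ and 4976 and 6079 in Trex1 WT, STING +/+. On STING +/+ 6 rose and 2 fell in Trex1 KO, with C1qb at 3.45 ± 0.43, and Cd163, a scavenger receptor of resident macrophages, at least 10.8-fold lower, being undetected in KO. The 9 endothelial markers summed to 10546 and 5753 in Trex1 KO, STING +/+ against 9664 and 8845 in Trex1 WT, STING +/+, where 0 rose and 3 fell. The 8 pericyte and smooth muscle markers summed to 3964 and 1725 in KO against 6229 and 4726 in WT, where 0 rose and 4 fell. The part of these cell types in the Col8a1, Col1a1 and Col3a1 results was not tested.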

How the data were processed

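Total RNA from mouse hearts was labelled as biotin cRNA and hybridised to 12 Illumina bead arrays, per the labels' protocols. The authors deposited raw intensity signals (50.1 to 65008.3 over 45281 probes) with a detection score per probe that ranks with the signal (rank correlation 0.979 to 0.988) and equals 1 minus the detection p. The authors also deposited processed log2 values, from which each probe's median had been subtracted (array medians -0.01 to 0.01); over 11999 bright probes they differed from quantile-normalized log2 intensities by at most 0.0136. No source used here gives a genome build for the probes. Depth on arrays is limited by background, and precision by their number.

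Intensities were normalized with neqc of limma 3.58.1 (R 4.3.3, offset 16, negative controls inferred from the detection p). Probes detected (p under 0.05) on at least 2 arrays were kept (22810), with 1 probe per gene, the brightest, which left 15560 features. The platform annotation names 1 gene for 34885 probes, several for 18 and none for 10378. A limma fit of 6 group means over the 12 arrays (lmFit, eBayes, 6 residual degrees of freedom) gave 9 contrasts, with Benjamini-Hochberg adjustment over all features and a threshold of 0.05. Log2 levels are compared within a probe only. Replicate numbers follow accession order and carry no meaning.

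The collagen genes and the 24 gene lists (204 genes, 167 measured) were chosen with earlier results of these data known. Every member is accounted for, and those detected on all arrays or past the threshold are described by name; of other lists up to 3 genes past the threshold, by size of difference, are named per contrast, or the 2 brightest where none passed. Alternatives were another normalization, the authors' values, the filter, the variance prior, array weights, fits of the compared groups, probe choice, Xist as covariate, and leaving out arrays. The fit was tested on simulated data.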

Additional observations from a re-analysis of the deposited data

How the results depend on the processing

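None of the collagen calls changed direction under the alternatives run. Differences that were not past the threshold did change sign, in 59 of 1386 single-gene values under the other settings and 75 of 1512 on leaving out 1 array. On STING +/+, leaving out 1 array moved Col4a1 between -0.42 and 0.76, Col4a2 between -0.67 and 0.47 and Col5a1 between -0.48 and 0.35. Counts of collagen genes past the limma threshold moved as follows. For Trex1 KO against WT on STING +/+ the count of 1 became 2 with no filter, which added Col9a2, detected on 1 array, and 0 when only the groups compared were fitted; leaving out each array gave 1 to 3. For Trex1 KO, STING +/- against STING +/+ it was 0 in place of 1 with no filter, with array weights, with only the groups compared and without the 2 Trex1 KO arrays with raised atrial signal, and 0 to 2 on leaving out each array. For Trex1 KO, STING -/- against STING +/+ it was 1 in place of 3 with array weights, 2 with no filter, 2 with only the groups compared, 4 without the 2 Trex1 KO arrays with raised atrial signal (Col18a1 added), and 1 to 4 on leaving out each array. The interaction of STING +/+ minus STING -/- gave 1 in place of 0 without the 2 arrays of low Hnrnpa2b1 signal (Col8a1), and 0 to 1 on leaving out each array. That of STING +/+ minus STING +/- gave 1 with Xist as a covariate (Col4a3, adjusted p = 0.0493), and 0 to 4 on leaving out each array, with 4 without replicate 1 of Trex1 KO, STING +/+ (Col4a3, Col5a1, Col6a1 and Col15a1). The other 4 contrasts gave 0 calls under every alternative and on leaving out each array. The cause of these changes was not tested, beyond the smaller number of arrays where arrays were left out. The share of all features called moved as well, between 9% and 33.3% for Trex1 KO against WT on STING +/+ and between 8.28% and 35.2% for Trex1 KO, STING -/- against STING +/+. Probes near background limit the 13 genes not detected on every array. No paired analysis was possible because the labels give no replicate numbers and the numbers used here come from accession order.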
